A study of Mus musculus with 2 samples.

Results

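The proteasome and immunoproteasome genes of mouse macrophages were described from nuclear RNA. The genes were taken as all those with a symbol made of Psm, a letter from a to g and a number, and with a protein-coding transcript in the annotation, which gave 50 of the 55536 named genes. Another 4 symbols of this form (Psmb5-ps, Psmb6-ps, Psmb6-ps2 and Psmb7-ps2) belonged to entries without a protein-coding transcript and were left out. Psmc3ip met the symbol rule, but is known as a recombination protein and not as a proteasome subunit.

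The study measured 1 group in 2 libraries. Bone marrow-derived macrophages of the C57BL/6J mouse strain were kept with Lipid A at 100 ng/ml for 12 hours. Lipid A is the fatty anchor of lipopolysaccharide and the piece that the receptor TLR4 senses. The cells then spent 12 hours without it and were stimulated again at 100 ng/ml for 20 minutes before the nuclear fraction was taken. Ribosomal RNA was depleted and the remaining total RNA was sequenced, starting from 1 µg of RNA in replicate 1 and from 500 ng in replicate 2. RNA input and replicate therefore cannot be told apart, and the labels do not show that the libraries came from separate animals. No age was collected per the labels, and no untreated or once-treated cells were analysed here, so nothing below is a response to Lipid A.

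The libraries held 21954179 and 17739520 expected counts in genes, of which the 50 genes took 0.177% and 0.142%. All 8 macrophage markers on the list used had a mean of 1 TPM or more, where TPM is the abundance of a transcript per length and scaled to 1 sum in each library, between 60.5 and 1411 TPM. The markers of other cell types were low. Their summed levels in replicates 1 and 2 were 0.06 and 0.42 TPM for 5 lymphoid genes and 1.78 and 2.53 TPM for 5 neutrophil genes. For 3 erythroid genes they were 1.90 and 1.12 TPM, and for 3 stromal genes 0.14 and 0.31 TPM. The neutrophil marker S100a9 (1.00 and 1.83 TPM) and the erythroid marker Alas2 (1.73 and 0.67 TPM) also had a mean of 1 TPM or more over the 2 libraries. Cd3e, Cd3g, Ly6g, Elane and Hba-a1 were listed at 0 in both. In bulk RNA such as this, fewer cells of a type and less RNA per cell cannot be told apart.

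The proteasome is the large protease that degrades proteins tagged with ubiquitin. Its core particle is a barrel of alpha rings around beta rings, and the beta subunits Psmb5 (beta 5), Psmb6 (beta 1) and Psmb7 (beta 2) cut the substrate. In immune cells and under interferon the inducible subunits Psmb8 (beta 5i), Psmb9 (beta 1i) and Psmb10 (beta 2i) can take their places, forming the immunoproteasome, while Psme1 and Psme2 form the PA28 cap, and both favour the making of peptides for MHC class I. The 19S regulatory particle recognises ubiquitin chains and unfolds the substrate with its ring of ATPases.

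The immunoproteasome and PA28 genes were among the most abundant proteasome genes in these nuclei. The median level of Psmb8, Psmb9, Psmb10, Psme1 and Psme2 was 62.8 TPM and 45.5 TPM in replicates 1 and 2. The 14 constitutive core subunits had medians of 17 and 14.2 TPM, the 17 regulatory particle subunits 20.6 and 24.1 TPM, and all 12952 genes at a mean of 1 TPM or more 6.09 and 7.54 TPM. On the log2(mean TPM + 1) scale the median of the 5 genes lay 1.97 above that of the 14 core subunits. This gap was smaller in each library alone, at 1.84 in replicate 1 and 1.61 in replicate 2. With 1 group and 2 libraries this is a description, without a test.

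Psme2, which codes for the beta chain of PA28, had 122 and 88.9 TPM in replicates 1 and 2. This was the highest mean of all 50 genes in the gene table (105 ± 23.3 TPM, SD, n = 2), and 3.20% of all genes with 1 TPM or more stood higher. Psmb10 followed with 92.1 and 45.5 TPM (68.8 ± 33.0 TPM, SD, n = 2), and Psme1, the alpha chain of PA28, with 62.8 and 67.8 TPM (65.3 ± 3.59 TPM, SD, n = 2). The ranges of Psme2 and Psmb10 over the libraries overlapped, as did those of Psmb10 and Psme1, so the order of these neighbours was not separated. Psmb8 had 54.7 and 28.15 TPM and ranked 10th, and Psmb9 had 41.8 and 25.9 TPM and ranked 11th. Their ranges also overlapped.

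The annotation (GENCODE M21, mm10) places Psmb8 at chr17:34197721-34201454 on the plus strand and Psmb9 at chr17:34181987-34187764 on the minus strand. Psme1 lies at chr14:55578123-55581529 (plus) and Psme2 near it at chr14:55587441-55591113 (minus), and Psmb10 lies apart from these at chr8:105935735-105938444 (minus). The constitutive counterparts are scattered: Psmb5 lies at chr14:54614119-54618022 (minus), Psmb6 at chr11:70525367-70527858 (plus) and Psmb7 at chr2:38588036-38644087 (minus).

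Psme2b ranked 4th with 66.0 and 44.5 TPM, but its level is uncertain. It has 1 annotated transcript, and 76.5% of its 807 words of 31 bases also occur in Psme2 transcripts, so the estimate could split reads between the 2 genes in either direction. Psme2b also lies on the same strand within the span of 9930111J21Rik1, which had 63.7 and 45.2 TPM. Of the Psme2b words, 1.36% also occur in 9930111J21Rik1 transcripts.

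Among the constitutive subunits the levels spread from 5.80 to 47.3 TPM. Psma3 was the highest alpha subunit with 40.3 and 54.4 TPM, followed by Psma1 with 27.6 and 34.1 TPM, and Psma2 was the lowest with 6.29 and 5.31 TPM. Alpha subunits form the outer rings of the barrel and its gate. Of the beta subunits that do not cut, Psmb4 had 21 and 13.97 TPM, Psmb2 19.5 and 14.4 TPM, and Psmb1, the lowest by its mean, 10.28 and 10.03 TPM. Psmb3 had 12.89 and 8.99 TPM, and its range overlapped that of Psmb1. Psmb6 stood apart from the other cutting subunits: it had 52.8 and 41.7 TPM, against 13.3 and 11.3 TPM for Psmb7 and 12.9 and 10.8 TPM for Psmb5.

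In the regulatory particle the scaffold subunit Psmd2 had 48.6 and 45.5 TPM and Psmd8, a lid subunit, 43.5 and 42.1 TPM, while Psmd12, also of the lid, was the lowest non-ATPase with 8.96 and 9.04 TPM. The ATPases that drive unfolding ran between Psmc6 with 26.87 and 33.98 TPM, Psmc1 with 25.7 and 30.4 TPM and Psmc2 with 9.41 and 7.85 TPM. All 17 subunits of the particle thus had a mean above the median gene, which was 6.94 TPM. Of the other activators that bind the end of the barrel, Psme4 (PA200) had 35.4 and 55.2 TPM and Psme3 (PA28 gamma, a nuclear activator) 12.3 and 17.3 TPM.

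Of the assembly factors among the 50 genes, all but Psmd10 had a mean below the median gene (6.94 TPM), as did the inhibitor. Psmd10, Psmd9 and Psmd5, chaperones of the regulatory particle, had mean levels of 7.59, 5.26 and 4.34 TPM. Psmf1, known as the proteasome inhibitor PI31, had 3.23 and 4.43 TPM, and the core chaperones Psmg2, Psmg3, Psmg1 and Psmg4 had means of 3.09, 3.01, 2.02 and 1.87 TPM. In all, 47 of the 50 genes had a mean of 1 TPM or more, against 45.8% of the 21901 genes with a protein-coding transcript. The exceptions were Psma8, the alpha subunit of the testis, with 0.45 and 0.73 TPM, Psmc3ip with 0.29 and 0.67 TPM, and Psmb11, the thymus subunit beta 5t, which was listed at 0 in both libraries in this table and had 0.242 and 0.689 TPM in the other deposited transcript table. A count of 0 allows up to 0.137 and 0.169 CPM (counts scaled to depth alone) at these depths, and such limits cover counting error only, since reads are not independent molecules.

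**Figure D1:**
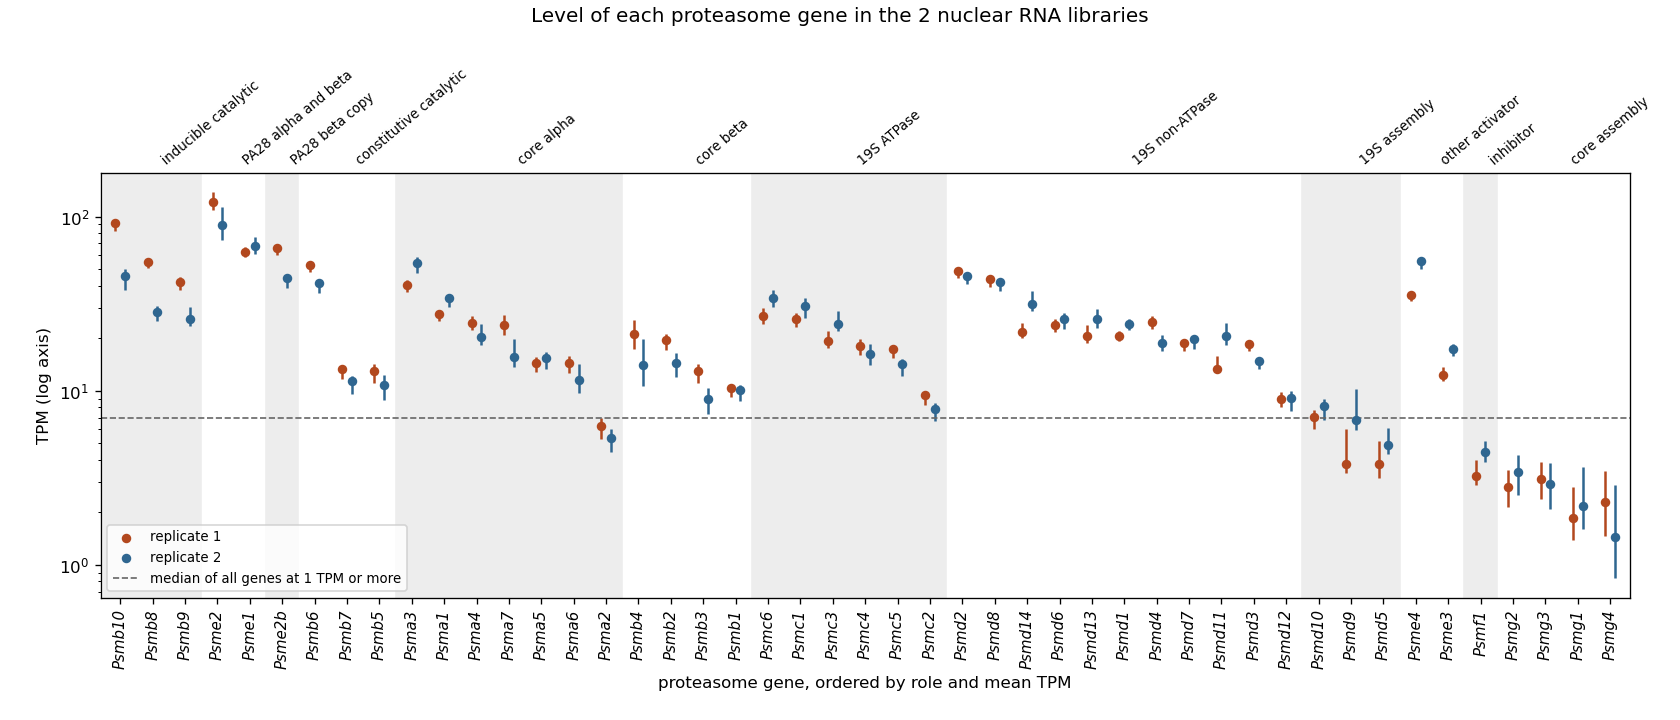
TPM on a log axis of the 47 proteasome genes with a mean of 1 TPM or more, by role, in replicate 1 and replicate 2. Vertical lines are the deposited intervals of each estimate and the dashed line is the median of all genes at 1 TPM or more (6.94 TPM). The inducible and PA28 genes stand at the upper left, and the core assembly factors at the lower right.

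Each inducible subunit can be set beside the constitutive one it replaces. Psmb10 was above Psmb7 in both libraries, with 92.1 and 45.5 TPM for Psmb10 against 13.3 and 11.3 TPM for Psmb7. Ratios of 6.93 and 4.01 follow. Psmb8 was above Psmb5, with 54.7 and 28.15 TPM for Psmb8 against 12.9 and 10.8 TPM for Psmb5, and ratios of 4.25 and 2.62. In these 2 pairs the ranges of the genes over the libraries did not overlap. For the remaining pair, Psmb9 had 41.8 and 25.9 TPM against 52.8 and 41.7 TPM for Psmb6, ratios of 0.793 and 0.620, and the ranges overlapped. In counts not divided by length, Psmb9 was above Psmb6, at 74.2 and 45.6 against 40.2 and 26.7 CPM. On that scale the ratios of Psmb10 over Psmb7 were 2.61 and 1.08 in replicates 1 and 2, so these genes were nearly equal in replicate 2. Those of Psmb8 over Psmb5 were 6.66 and 4.12.

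The order of the pairs depended on which transcripts were counted. When only transcripts annotated as protein coding were summed, an alternative chosen after seeing the data, Psmb8 had 8.14 and 5.17 TPM against 12.9 and 10.8 TPM for Psmb5, so the inducible subunit stood lower in both libraries. Psmb10 had 18.7 and 6.10 TPM against 10.9 and 6.90 TPM for Psmb7, which put it above in replicate 1 and below in replicate 2. Psmb9 had 19.03 and 7.88 TPM against 24.2 and 18.8 TPM for Psmb6. On the log2 scale of the mean, the median of the 5 immunoproteasome and PA28 genes was then 0.18 above that of the core subunits, against 1.97 with all transcripts. The direction differed between the libraries. In coding transcripts the median of the 5 genes was 19.03 TPM against 12.9 TPM for the core in replicate 1. It was 7.88 against 10.07 TPM in replicate 2.

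**Figure D2:**
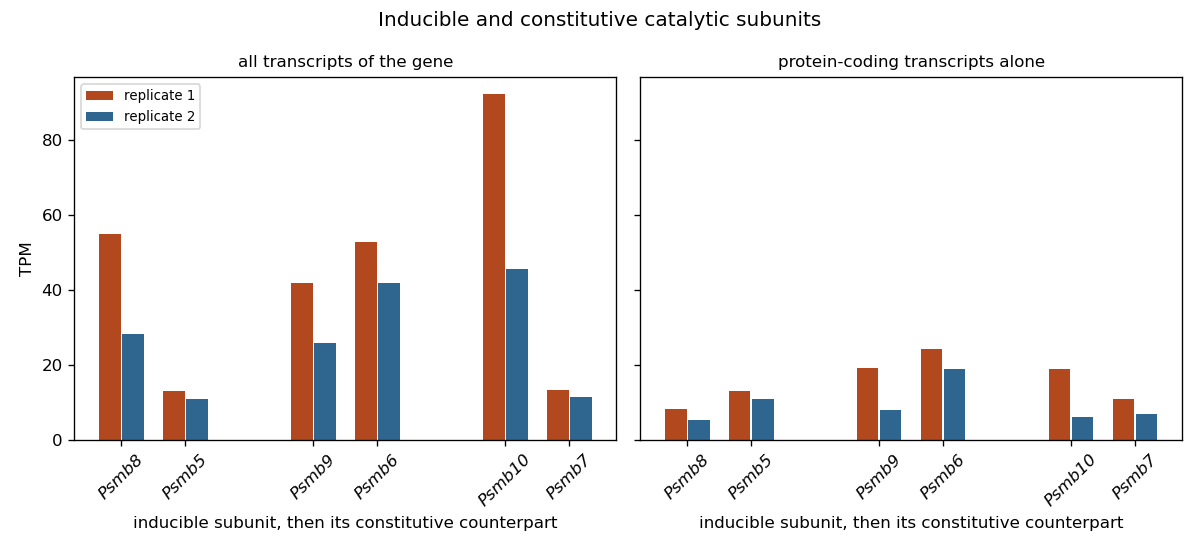
TPM of each inducible catalytic subunit and its constitutive counterpart in replicate 1 and replicate 2, over all transcripts of the gene (left) and over protein-coding transcripts alone (right), on 1 linear axis from 0. Psmb8 and Psmb10 stand above their counterparts on the left. On the right Psmb8 stands below Psmb5 in both libraries.

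Much of the RNA of the inducible genes was assigned to transcripts that are not annotated as protein coding, such as those that keep an intron. These transcripts held 85.1% and 81.6% of the TPM of Psmb8 in replicates 1 and 2, 79.6% and 86.6% of that of Psmb10, and 54.5% and 69.5% of that of Psmb9. The shares were 47.8% and 63.2% for Psme1 and 35.6% and 61.3% for Psme2. Over the mean of both libraries 4 of the 5 genes exceeded 50%, all but Psme2, against 26.3% of the 8224 genes at 1 TPM or more that have both kinds of transcript. The median share was 60.2% for the 5 genes, 28.5% for the 12 constitutive core genes with both kinds and 31.6% for all 8224 genes. In expected counts, not divided by length, it was 55.6% for the 5 genes and 21.8% for the core. On that scale Psme1 was not above 50%: its coding transcript Psme1-208 held 882 of 1428 counts in replicate 1 and 457 of 773 in replicate 2.

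Of all proteasome genes with both kinds, 10 of 41 exceeded 50%, a share near the 26.3% of all 8224 genes. Beside the 4 named above, the proteasome genes over 50% were Psma3 with a mean share of 70.7%, Psmf1 with 68.4% and Psmc6 with 62.2%. Psmd6 with 59.8%, Psmb6 with 54.4% and Psma7 with 53.0% completed them. Psmb6 kept 54.0% and 54.8% in replicates 1 and 2, Psmb7 had 17.8% and 39.1%, and Psmb5 has no annotated transcript of another kind.

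The transcript with the largest share of Psmb8 was Psmb8-205, annotated as a retained intron, with 32.8 TPM (deposited interval, of a level not stated, 28.8 to 34.1) in replicate 1 and 16.3 TPM (13.0 to 17.5) in replicate 2. It keeps intron 3 of the 6 introns of the coding transcript Psmb8-203, and this intron is shown because 60.02% and 58.03% of the TPM of the gene was assigned to the transcript that holds it. Of the 1234 bases of Psmb8-205, 190 lie outside the exons of coding Psmb8 transcripts, and these 190 are the intron. The intron lies at chr17:34199381-34199570 (mm10, plus strand) and reads, with its first and last bases in capitals:
Psmb8 intron 3: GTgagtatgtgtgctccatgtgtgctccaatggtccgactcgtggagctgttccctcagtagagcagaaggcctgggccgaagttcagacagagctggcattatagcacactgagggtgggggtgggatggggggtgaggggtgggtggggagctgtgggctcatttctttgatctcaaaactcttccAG
Its ends follow the common GT and AG rule of introns. The opposite-strand gene Gm20496, which overlaps Psmb8, had 0.36 and 0 TPM.

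The other introns of this kind were in part longer. Psmb9-201, with 11.7 and 9.49 TPM, keeps introns 1 and 3 of 5, which span 1452 and 537 bases at chr17:34185798-34187249 and chr17:34183745-34184281 (minus strand). Psme1-207, with 14.8 and 6.02 TPM, keeps intron 4. It is short and is shown beside that of Psmb8 for comparison, at chr14:55580042-55580113 (plus strand, ends in capitals):
Psme1 intron 4: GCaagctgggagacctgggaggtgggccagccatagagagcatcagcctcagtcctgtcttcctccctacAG
The Psme1 intron begins with GC, a less common donor. G and C made up 56.8% of the Psmb8 intron and 61.1% of the Psme1 intron.

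For Psmb10, Psme1 and Psme2 the division among transcripts moved between the libraries. Psmb10-203, a processed transcript of 426 bases with 48 bases outside coding exons, had 47.9 and 11.2 TPM, and the retained-intron transcript Psmb10-205 had 14.2 and 22.7 TPM. Psme1-209, marked for nonsense-mediated decay, had 4.39 and 32.7 TPM, and only 5 of its 439 bases lie outside coding exons. The coding transcript Psme2-201 had 28.7 TPM in replicate 1 and was listed at 0 in replicate 2, while the retained-intron transcript Psme2-207 had 13.3 and 27.7 TPM.

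**Figure D3:**
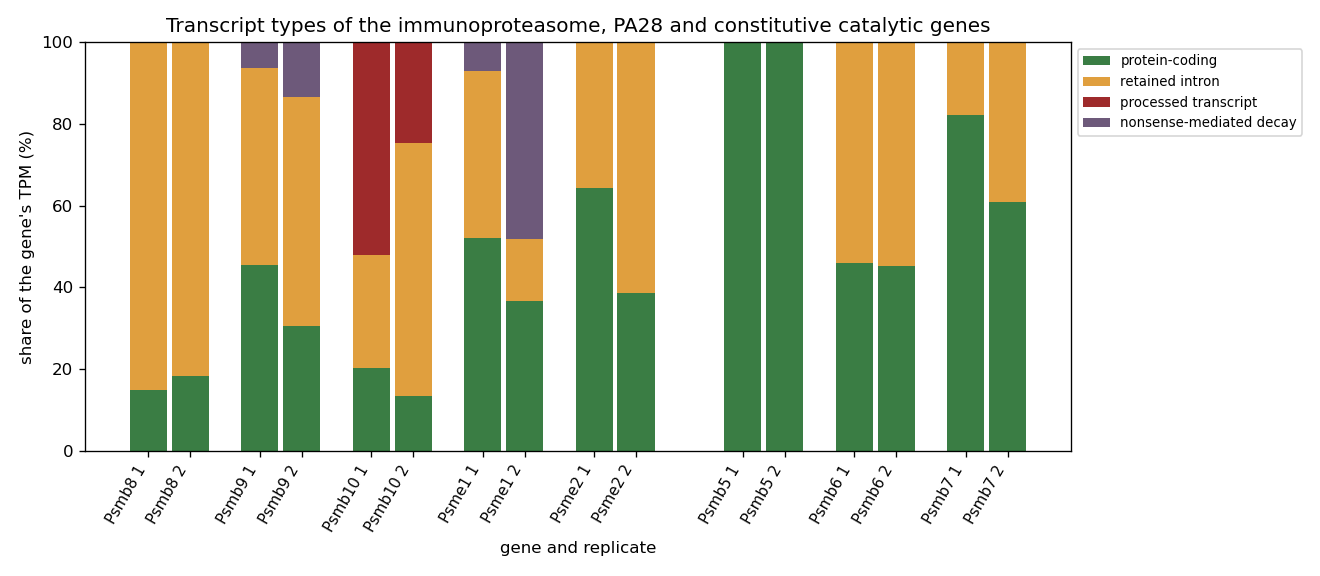
Share of each gene's TPM by annotated transcript type, in percent, with 1 bar for each gene and replicate, for the immunoproteasome and PA28 genes (left) and the constitutive catalytic subunits (right). Psmb8 and Psmb10 have the smallest protein-coding shares, and Psmb5 is coding throughout. The type of the other transcripts changes between replicates for Psmb10 and Psme1.

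Relative to the median gene, the immunoproteasome genes stood higher in replicate 1. Differences are given as log2((TPM of replicate 1 + 1)/(TPM of replicate 2 + 1)) minus the median of this value over all genes at 1 TPM or more, which was -0.29, so that a positive value means higher in replicate 1 relative to the median gene. The addition of 1 understates the change of low genes. Psmb10 differed by 1.29 and Psmb8 by 1.22, and in this gene table these were the only ones of the 47 genes beyond 2-fold, a limit that 4.51% of all genes passed upwards and 2.78% downwards. With 1 library on each side there is no test, and 2 of 47 is a share near the upward background.

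Psmb9 differed by 0.96, just under the 2-fold limit, Psme2 by 0.74 and Psme1 by 0.18. All 5 were above the median gene, with a median of 0.96, but without centring Psme1 was lower in replicate 1 and the median was 0.67. The deposited intervals of the 2 libraries did not overlap for Psmb8, Psmb9 and Psmb10 and overlapped for Psme1 and Psme2. Over all genes at 1 TPM or more, 47.6% had intervals that did not overlap.

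The constitutive core subunits had a median difference of 0.53, with 12 of 14 above the median gene, and the regulatory particle subunits had a median of 0.22 with 12 of 17 above. Psma7 had the largest core difference at 0.87 (23.9 and 15.6 TPM), and Psma3 the lowest at -0.14. Without centring the medians were 0.24 for the core, with 11 of 14 above 0, and -0.07 for the regulatory particle, with 7 of 17 above 0. Psme4 and Psme3 lay on the other side of the median gene, at -0.34 and -0.17, and Psme2b was at 0.85. The middle 50% of all genes ran from -0.32 to 0.33.

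The other deposited transcript table, made from the reads directly, gave smaller differences for these 5 genes. Summed to genes and centred on its own median gene, Psmb8 differed by 0.93, Psmb10 by 0.71, Psmb9 by 0.61, Psme2 by 0.58 and Psme1 by -0.14, and no proteasome gene passed 2-fold. The median gene of that table differed by -1.28 between replicate 1 and replicate 2, so that before centring all 5 genes were lower in replicate 1: Psmb8 had 12.7 and 16.6 TPM, and Psmb10 22.49 and 33.97 TPM. The higher level in replicate 1 is therefore a statement relative to the median gene.

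**Figure D4:**
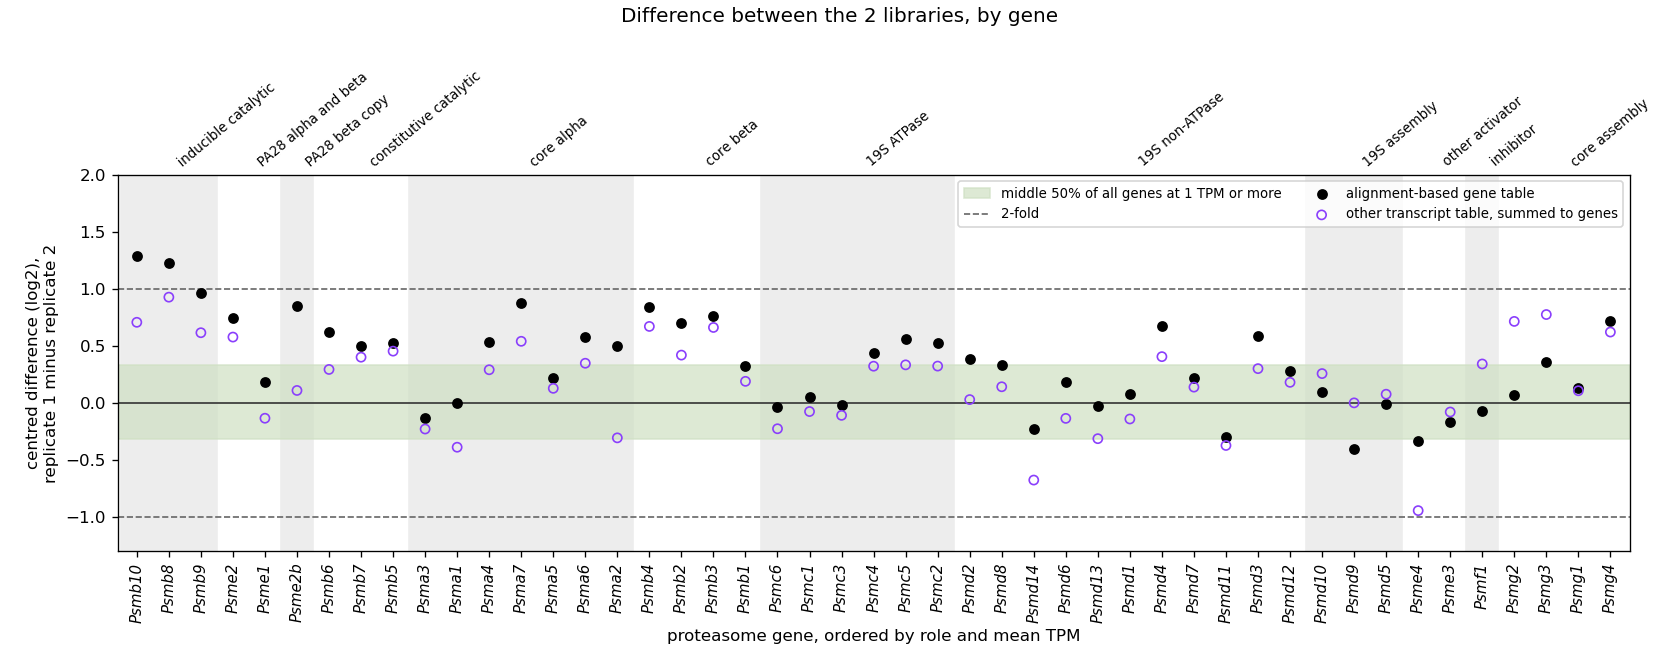
Centred difference between the libraries (log2, replicate 1 minus replicate 2) of the 47 proteasome genes with a mean of 1 TPM or more, by role. Filled points are the gene table, open points the other transcript table, the green band is the middle 50% of all genes (-0.32 to 0.33) and dashed lines mark 2-fold. Psmb10 and Psmb8 lie above the upper line in the gene table, and no gene does in the other table.

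Promoters were read for the 42 genes with an entry in RefSeq (GRCm38.p6), as windows of 250 bases before to 50 after the start. Short motifs were searched on both strands, and a match is a description of the letters. The background below is a share of windows, while the 42 are genes. A gene can have several windows, as Psme2 does with 2 start sites. The shares of windows and the counts of genes therefore have different units and do not measure enrichment. The core of the interferon-stimulated response element (ISRE), which is GAAA, then 2 bases of any kind, then GAAA, occurred in 3.44% of all 32851 windows and in 5 of the 42, among them Psme1 alone of the immunoproteasome and PA28 genes. TTCNNNGAA, the GAS element, occurred in 8.30% of windows and in 3 of the 42, among them Psmb8. TGACNNNGC, the antioxidant response element (ARE) bound by NRF factors, occurred in 12.4% of windows and in 6 of the 42, among them Psmb5 and Psmb6. CCAAT occurred in 37.4% of windows and in 15 of the 42, and GGGCGG, the GC box, in 35.7% and in 23 of the 42. Psmb9 had both, and Psme1, Psme2 and Psmb6 had a GC box.

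Of the matches in the immunoproteasome and PA28 genes and in the constitutive counterparts, those of the GAS, ISRE and ARE motifs and the matches of Psmb9, which faces Tap1, are shown as 30 bases each, and the GC boxes of Psme1, Psme2 and Psmb6 are not. They read 5′ to 3′ on the strand of the gene, with the match in capitals (GRCm38.p6):
Psmb8 GAS, chr17:34198087-34198116, plus: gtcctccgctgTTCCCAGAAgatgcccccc
Psmb9 CCAAT box, chr17:34187322-34187351, minus: cgcgcagccgctgATTGGaaagccgagccc
Psmb9 GC box, chr17:34187368-34187397, minus: tgcgcgatgatgGGGCGGggcctcagtctg
Psme1 ISRE, chr14:55578493-55578522, plus: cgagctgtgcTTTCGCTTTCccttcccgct
Psmb5 ARE, chr14:54618024-54618053, minus: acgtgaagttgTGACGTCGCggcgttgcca
Psmb6 ARE, chr11:70525337-70525366, plus: actaaagagagTGACGGAGCgctttacgac
The Psmb9 CCAAT box and the Psme1 ISRE are read here from the opposite strand. The Psmb8 match begins 97 bases before the RefSeq start, and the Psmb6 match 9 bases before it. The Psme1 match begins at base 10 of the transcript. The Psmb8, Psmb9 and Psme1 matches lie within the GENCODE spans of their genes, which begin before these RefSeq starts.

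The Psmb10 window held none of these motifs, and Psmb10 had the largest centred difference of the 47 genes in the gene table. Its part before the first annotated exon is shown for that reason, at chr8:105938445-105938642 (GRCm38.p6, minus strand):
Psmb10: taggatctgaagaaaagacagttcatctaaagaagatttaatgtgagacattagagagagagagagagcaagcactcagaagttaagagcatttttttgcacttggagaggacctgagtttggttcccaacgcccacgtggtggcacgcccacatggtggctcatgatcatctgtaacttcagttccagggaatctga
The absence of a match says only that these letters are not in this window.

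Psmb8 and Psmb9 lie beside the peptide transporter genes in the MHC region of chromosome 17. In the gene table all 4 genes stood on the same side of the median gene. Tap1 and Tap2 code for the 2 chains of the pump that carries proteasome products into the endoplasmic reticulum. Within 34.3 kb, Psmb9 differed by 0.96, Tap1 by 0.83 (157 and 107 TPM), Psmb8 by 1.22 and Tap2 by 1.31 (79.4 and 38.6 TPM). The RefSeq starts of Psmb9 and Tap1 are 225 bases apart on opposite strands, and the annotated genes overlap. Nothing in the sources used here gives the strand setting of the counting, so reads of Psmb9 and Tap1 in the overlap may not be separated.

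**Figure D5:**
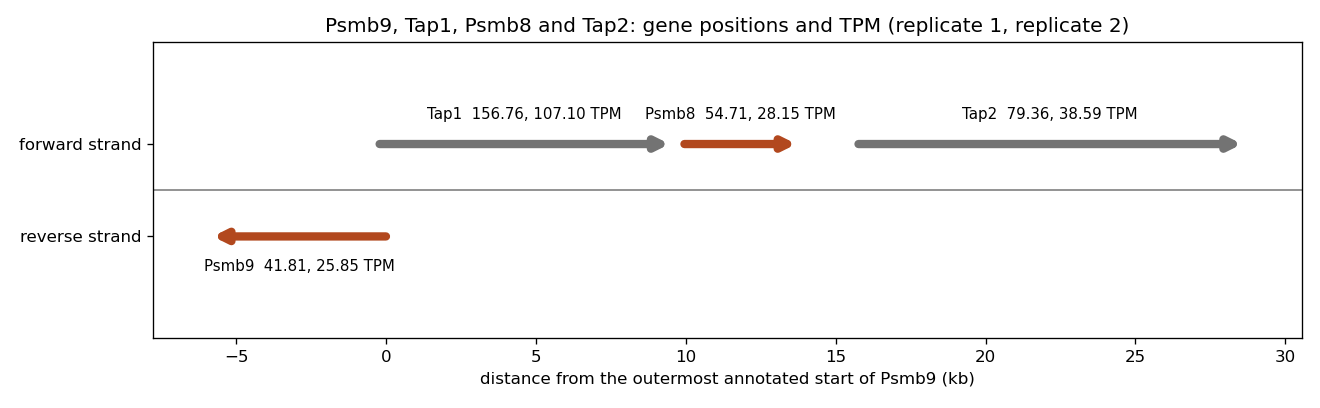
Positions and strands of Psmb9, Tap1, Psmb8 and Tap2 as distance in kb from the outermost annotated start of Psmb9, with the TPM of replicate 1 and replicate 2 beside each gene. In the gene table, shown here, all 4 genes have a higher TPM in replicate 1, and Tap1 is the highest with 157 and 107 TPM. In the other transcript table Psmb8 (12.7 and 16.6 TPM) and Psmb9 (12.7 and 20.8 TPM) were lower in replicate 1.

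Other genes of the pathway were taken from a list, of which 28 of 29 were matched and all 28 had a mean of 1 TPM or more. Relative to the median gene 18 were higher and 10 lower in replicate 1, and 3 passed 2-fold upwards: Tap2 at 1.31, Pomp, the chaperone of core assembly, at 1.07 (21.2 and 12.0 TPM), and Irf1, an interferon-response transcription factor that drives immunoproteasome genes, at 1.01 (140 and 84.5 TPM). None passed 2-fold downwards. Over all genes at 1 TPM or more, 4.51% passed upwards and 2.78% downwards. Without centring Tap2 differed by 1.02, while Pomp at 0.78 and Irf1 at 0.72 stayed under the 2-fold limit. B2m, the light chain of MHC class I, was the highest of the list with 564 and 1047 TPM and lay below the median gene at -0.60. Tapbp, which loads peptides on MHC class I, had 499 and 348 TPM (0.81). These counts describe 2 libraries, and the part that RNA input played in them was not tested.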

How the data were processed

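Nuclear ribosomal RNA-depleted total RNA was measured in 2 libraries of 1 group. The genes and lists were chosen with earlier results of these data known. Text files deposited beside the tables name the mm10 assembly and GENCODE M21. No quantifier, version or strand setting could be found in the sources used here. Expected counts in the deposited tables are estimated reads without normalisation, per the file headers. The authors' TPM values divide those by effective length, with 1 total for all libraries, per the file headers. Per the file headers, the deposited isoform percent splits a gene's TPM among its transcripts. The intervals are deposited bounds of the TPM. The authors also deposited a second transcript table, made from the reads directly, with estimated counts and TPM.

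From these, levels were taken as TPM and as log2(mean TPM + 1), and differences as log2((replicate 1 + 1)/(replicate 2 + 1)), centred on the median of 12952 genes at a mean of 1 TPM or more. No test was run, because there is 1 group. The libraries were compared as counts (chi-square over degrees of freedom 91.2 over 14355 genes), so they are not copies of 1 library. Depth was 21954179 and 17739520 expected counts, and the limit for a count of 0 was 3 counts. Scaling with TMM factors used edgeR 4.0.16 in R 4.3.3 on rounded counts; the rest used Python 3.11.15, pandas 2.3.3 and numpy 2.4.6. Scripts were tested on simulated data. Promoters came from RefSeq (GRCm38.p6), introns from GENCODE M21 transcripts.

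All genes at 1 TPM or more are covered by role. The immunoproteasome and PA28 genes and their counterparts are given in full, with the 2 highest and the lowest of each other role, genes beyond 2-fold and genes with over 50% of their TPM outside coding transcripts. Genes of the pathway list were named if among the 4 highest or beyond 2-fold, and some items that these rules name are not reported here. Overlapping genes on opposite strands (19 of the 50 genes have one) may not be separated. Among these, Gm16156 at Psmb10 had 0.4 and 0.1 TPM and Emc9 at Psme1 had 4.37 and 6.06 TPM. Alternatives were another pseudocount, filter, scaling, table, transcript set or list, and each library alone.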

Additional observations from a re-analysis of the deposited data

How the results depend on the processing

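No paired analysis was possible because there is 1 group. Of 77 recomputed values 49 stayed within a set tolerance, which was the SD of the 2 libraries (for differences, 0.2 log2, and for counts of genes, within 1.5 times), 25 did not and 3 reversed. The gap of the immunoproteasome and PA28 genes over the core (1.97 log2) was 1.75 with a pseudocount of 5, 1.68 in the other table, 1.51 in counts not divided by length, 2.32 against the 3 counterparts alone, 1.71 against all core and 19S subunits, 1.33 for Psmb8, Psmb9 and Psmb10 alone, and 1.61 to 1.84 in each library alone. With protein-coding transcripts alone, chosen after seeing the data, it was 0.18, and 0.54 in the other table. Behind the 0.18, the median of the 5 genes was above the core in replicate 1 and below it in replicate 2. Psmb8 over Psmb5 (1.73) reversed to -0.74 and -1.06 in coding transcripts of the 2 tables and was 2.38 in counts. Psmb9 over Psmb6 (-0.47) reversed to 0.82 in counts. Psmb10 over Psmb7 (2.39) was 0.88 in counts and 0.44 and 0.21 in coding transcripts of the 2 tables. In counts it was 1.35 in replicate 1 and 0.10 in replicate 2. In each library alone the log2 ratios of the 3 pairs in gene TPM ran from 1.31 to 2.01, -0.67 to -0.33 and 1.91 to 2.70.

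The difference of the 5 genes (0.96) was 0.67 without centring, 0.61 in the other table and 1.36 in coding transcripts. That of core and 19S genes (0.38) was 0.092 without centring and 0.18 in the other table. Genes beyond 2-fold numbered 2, but 1 (Psmb10) without centring, 3 with a pseudocount of 0.1 (Psmb9 as well), 4 with TMM-scaled counts (Psmb4, Psmb10, Psme2 and Psmb8) and 0 in the other table. The noncoding share of the 5 genes (60.2%) was 81.5% in the other table, 55.6% of counts and 54.5 to 69.5% in each library alone. That of the core (28.5%) was 40.1% in the other table, 21.8% of counts and 28.2 to 36.0% in each library alone. The cause of these changes was not tested, except that the alternatives by construction use other reads, lengths or transcripts. Low genes such as Psmg4, with 20 and 10 counts, are limited by depth.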
